A study of Mus musculus with 4 samples.

Results

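The glutamate and glutamine transport family was described here by 9 genes: the glutamate and neutral amino acid transporters Slc1a1, Slc1a2, Slc1a3, Slc1a4, Slc1a5 and Slc1a6, the glutamine synthetase gene Glul, and the glutamine transporters Slc38a1 and Slc38a3. Every non-control spot of the array that carried one of these gene names was a member, whatever its value, which gave 22 probes of 9 genes out of 41174 probes of 28632 gene names. Of the 22 probes, 21 passed the brightness filter, and so did at least 1 probe of each of the 9 genes. The tissue was whole cerebellum of 4 Dicer mutant mice and 4 control littermates at postnatal day 30, on a mixed background. Mutants were mGfap-Cre; Dicer flox/flox and controls were mGfap-Cre; Dicer +/flox, so both groups carried the Cre transgene of the mGfap-cre 73.12 line, driven by a mouse Gfap promoter, and at least 1 floxed allele. Each of 4 two-colour arrays held 1 mutant and its littermate, with the mutant in Cy5 for pairs 1 and 3 and in Cy3 for pairs 2 and 4. Dicer makes mature microRNAs, and the comparison asks what follows its loss in astroglia, for neurons as well, as the title of the series has it.

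Glutamate released at synapses is cleared mainly by astroglia, through Slc1a2 (known as GLT-1) and Slc1a3 (known as GLAST), sodium-driven carriers that sit on astroglial membranes. In the cerebellum Slc1a3 is the main carrier of Bergmann glia, the radial astroglia that wrap Purkinje cell synapses, while Slc1a6 is a carrier of Purkinje cells and Slc1a1 of neurons more broadly. Inside astroglia, Glul turns glutamate into glutamine, Slc38a3 lets glutamine out, and Slc38a1 takes it up into neurons. Slc1a4 and Slc1a5 belong to the same family by sequence but exchange neutral amino acids.

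In mutant cerebellum, Slc1a2 was lower by its brightest probe, at 0.673 times the control level, and it was the only one of the 9 genes to pass the test. The call held in 10 of 18 alternative settings. The other tested Slc1a2 probes, at log2 ratios of -0.29 and -0.26, were not called. Slc1a3, at 0.704 times control, was below 0 on the log2 scale in all 4 pairs but did not pass, and Glul, at 0.793 times control, was below 0 in 3 of 4 pairs. The other glial gene, Slc38a3, stood at 0.970 times control, and the Purkinje cell carrier Slc1a6 at 1.08 times control. The tissue was sampled whole, so fewer cells of a type and less RNA per cell cannot be told apart.

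The probes differ in which part of a transcript they read, so 4 of them are shown. The first read Slc1a2 close to the end of its coding sequence, upstream of the point where the known splice forms of its protein part, and it gave the called difference. The second, with 35 bases between it and the end of the first, read the end of the GLT-1b form. The capitals mark the stop codon that ends its open frame. The third carries the Slc1a2 name but lies on the opposite strand to the gene and was not above background. The fourth read coding sequence of Glul. All are 60 bases long, as the array files give them, on mouse build mm9, at chr2:102617706-102617765 (plus strand), chr2:102617801-102617860 (plus strand), chr2:102584501-102584560 (minus strand) and chr1:155751765-155751824 (plus strand).
Slc1a2 A_52_P168496: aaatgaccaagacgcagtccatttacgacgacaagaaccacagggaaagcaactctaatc
Slc1a2 A_51_P477875: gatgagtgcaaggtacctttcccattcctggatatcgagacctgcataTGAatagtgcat
Slc1a2 A_52_P311194: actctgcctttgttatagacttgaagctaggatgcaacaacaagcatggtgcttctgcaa
Glul A_52_P143866: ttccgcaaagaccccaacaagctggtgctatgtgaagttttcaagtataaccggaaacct

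Ratios below are mutant over control within an array on the log2 scale, with SDs over the 4 pairs, and adjusted p values come from limma over 18025 genes, or over 25915 probes where a probe is named as such. A gene is represented by its brightest probe and is called at an adjusted p under 0.05. In all, 80 genes (0.444%) were called lower and 106 (0.588%) higher. Among the 9 members 1 was called lower and 0 higher. The member ratios were below 0 for 7 genes and above 0 for 2, with a median of -0.10, against a median of 0.00 and 49.1% below 0 over all genes tested. Ratios were below 0 in all 4 pairs for 3 members (Slc1a1, Slc1a2 and Slc1a3), against 7.33% of all genes, and above 0 in all 4 pairs for 0 members, against 7.76%. The SD over pairs ran from 0.07 for Slc1a1 to 0.29 for Slc1a3, around a median of 0.16 over all genes. No member had a called dye effect, and the smallest adjusted p for one was 0.547 by limma (Slc38a1).

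**Figure D1:**
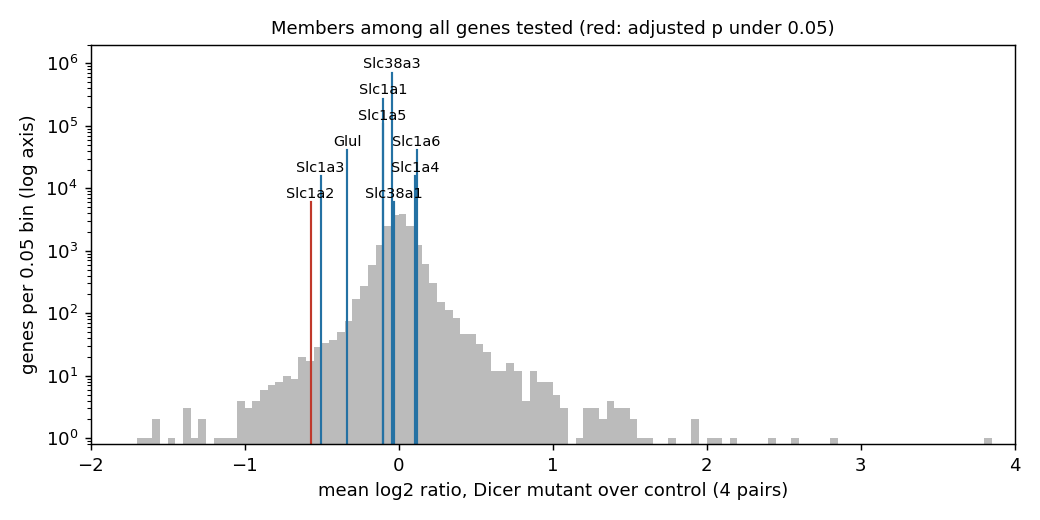
The grey histogram shows the mean log2 ratio of mutant over control for all 18025 genes tested, on a logarithmic count axis with bins of 0.05, and vertical lines mark the 9 members at arbitrary heights. Slc1a2 (red, called) lies at -0.57, Slc1a3 at -0.51 and Glul at -0.33, while the other 6 members lie between -0.10 and 0.12.

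Slc1a2, the astroglial glutamate carrier of most of the forebrain and a carrier of cerebellar astroglia, was read by its brightest probe at raw control intensities of 1251 to 1574, which were 12.6 to 55.6 times the local background. Normalized log2 levels in the control channel were 10.62, 10.35, 10.45 and 10.21 for pairs 1 to 4, and in the mutant channel 9.999, 9.74, 9.81 and 9.80. Every mutant level lay below every control level, which held for 1 of the 9 members and for 1.79% of all genes. The ratios were -0.62, -0.61, -0.64 and -0.41 for pairs 1 to 4, so pairs 1 to 3 nearly coincided and pair 4 was the smallest in size. The mean was -0.57 ± 0.11 (n = 4), a fold of 0.673 with a 95% interval of 0.602 to 0.753, and limma gave an adjusted p of 0.0271. Of all genes tested, 94 had a lower ratio. The direction was the same in every one of 18 alternative settings (-0.62 to -0.37), but the call held in 10 of them. With limma it was lost without replicate 1 (adjusted p = 0.181) or replicate 3 (adjusted p = 0.165), with the outlier spots kept in the background fit (-0.46, adjusted p = 0.178), with the scanner's processed signals (adjusted p = 0.0650), which the series' value table repeats, with median centring (adjusted p = 0.0914), with the mean over probes (-0.37, adjusted p = 0.183) and with no replicate block (adjusted p = 0.0534).

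The other Slc1a2 probes gave smaller values. Probe A_52_P178651, which lies 4207 bases beyond the GLT-1b probe at chr2:102622068-102622127, had control intensities of 309 to 432. Its ratios were -0.42, -0.33, -0.33 and -0.10, all below 0 and again smallest in size in pair 4. Its mean was -0.29 ± 0.14, with an adjusted p of 0.246 by limma over probes. The brightest probe was lower than it in every pair, by 0.28 ± 0.05 on the log2 scale, and an exact two-sided sign-flip test over the 4 pairs gave p = 0.125, the smallest value that 4 pairs allow.

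The GLT-1b probe printed above was dim, with control intensities of 99.4 to 242, or 1.70 to 7.60 times the local background. Its ratios were 0.15, -0.67, -0.55 and 0.03, so pairs 2 and 3 lay well below 0 and pairs 1 and 4 slightly above it. The mean was -0.26 ± 0.41, with an adjusted p of 0.828 by limma over probes, and it ran from -0.55 with the processed signals to -0.09 without replicate 2 or replicate 3. The difference from the brightest probe was -0.31 ± 0.37 (exact sign-flip p = 0.25). The brightest probe lies upstream of the point where the forms part, so this does not set 1 form against another. With 4 pairs the exact p cannot fall under 0.125, so whether the splice forms differed in their change cannot be told. The opposite-strand probe was well above background on 0 of 4 arrays in either channel, was not tested, and gave 0.01 ± 0.13. Over the family's probes, 1 of 21 was called lower, against 0.343% of all probes tested.

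**Figure D2:**
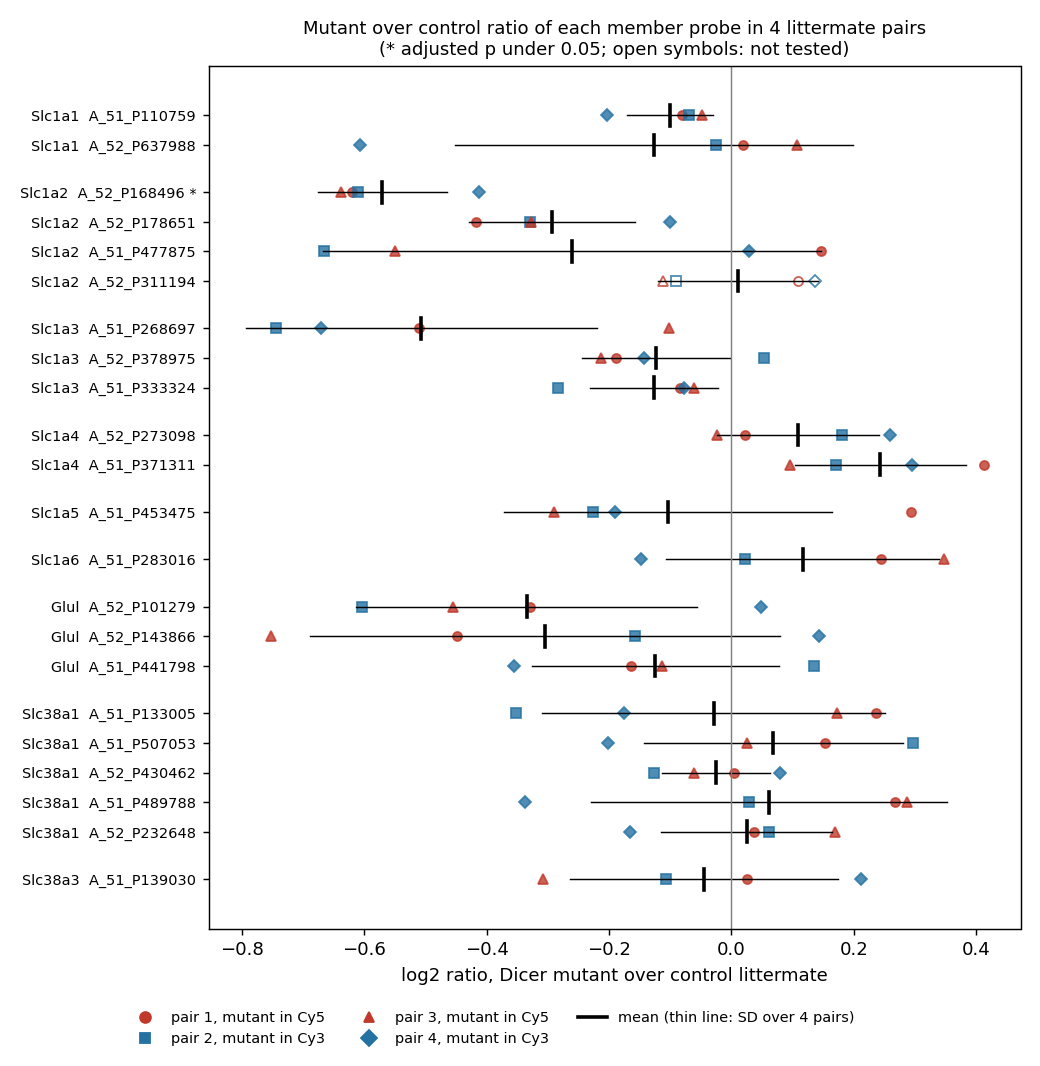
Each row is 1 of the 22 member probes, each symbol the log2 ratio of mutant over control in 1 littermate pair (red for mutant in Cy5, blue for mutant in Cy3), each thick bar the mean and each thin line the SD over 4 pairs. The brightest Slc1a2 probe is the only one called, and its pairs lie between -0.64 and -0.41, while the 5 Slc38a1 probes have means between -0.03 and 0.07.

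Slc1a3, the main glutamate carrier of Bergmann glia, was read by its brightest probe at chr15:8584236-8584295 with raw control intensities of 32820 to 59653. Normalized log2 control levels were 15.38, 15.59, 15.58 and 15.55 for pairs 1 to 4, and mutant levels were 14.87, 14.84, 15.48 and 14.88. In pairs 1, 2 and 4 the mutant lay clearly below all controls, and in pair 3 it reached the control range. The ratios were -0.51, -0.74, -0.10 and -0.67, with a mean of -0.51 ± 0.29 and a fold of 0.704 (95% interval 0.607 to 0.816). The adjusted p was 0.0899 by limma, and 126 genes had a lower ratio. Slc1a3 was called in 0 of 18 alternative settings, where its ratio ran from -0.61 to -0.25 and its adjusted p from 0.0594 to 0.380 by limma. It was below 0 with the mutant in either dye, at -0.31 over the Cy5 pairs and -0.71 over the Cy3 pairs.

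The 2 dimmer Slc1a3 probes gave smaller ratios. Probe A_52_P378975, on a cDNA 46277 bases from the brightest probe in genome coordinates, had control intensities of 407 to 611 and ratios of -0.19, 0.05, -0.21 and -0.14, a mean of -0.12 ± 0.12. Probe A_51_P333324, 52529 bases away on another cDNA, had control intensities of 115 to 198 and ratios of -0.08, -0.28, -0.06 and -0.08, a mean of -0.13 ± 0.10. Neither passed (adjusted p = 0.780 and 0.774 by limma over probes). The brightest probe lay below A_51_P333324 in all 4 pairs, by 0.38 ± 0.24 on the log2 scale (exact sign-flip p = 0.125), and below A_52_P378975 in 3 of 4 (exact sign-flip p = 0.25). Over the 24 probe pairs of 1 gene that were compared, those with the opposite-strand Slc1a2 probe among them, no adjusted exact p was under 0.75. With 4 pairs no exact p can fall under 0.125, so this does not show that the probes agree. The background offset of 50 can pull ratios of dim spots towards 0, and its part here was not tested. With an offset of 10, A_51_P333324 stood at -0.18, A_52_P378975 at -0.13 and the brightest probe at -0.50. With the processed signals they stood at -0.29, -0.16 and -0.51.

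Glul, the astroglial enzyme that makes glutamine from glutamate and ammonia, was read at chr1:155756750-155756809 by its brightest probe with raw control intensities of 27619 to 47922. Control log2 levels were 15.12, 15.25, 15.07 and 15.08 for pairs 1 to 4, and mutant levels 14.79, 14.65, 14.62 and 15.13. The mutant was lower in pairs 1 to 3, below every control, and slightly higher in pair 4. The ratios were -0.33, -0.60, -0.45 and 0.05, with a mean of -0.33 ± 0.28, a fold of 0.793 (95% interval 0.648 to 0.971) and an adjusted p of 0.449 by limma. Without replicate 4 Glul stood at -0.50 and was called (adjusted p = 0.0389 by limma), the only one of 18 settings in which it was. Without replicate 2 it stood at -0.17 (adjusted p = 0.527 by limma). These fits kept the dye term, so the single pair left in a dye order weighed as much as both pairs of the other order. They are not plain means of the remaining pairs.

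The coding probe of Glul printed above had control intensities of 473 to 727 and ratios of -0.45, -0.16, -0.75 and 0.14, a mean of -0.30 ± 0.38, so it shared with the brightest probe the sign of all 4 pairs. The 2 probes differed by -0.03 ± 0.32 (exact sign-flip p = 0.875). The dimmest Glul probe, A_51_P441798 between them, gave -0.16, 0.14, -0.11 and -0.36, a mean of -0.12 ± 0.20, with its lowest value in pair 4, where the other probes were highest.

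Slc38a3, the glutamine carrier through which astroglia release glutamine, had 1 probe, at chr9:107553825-107553884, with raw control intensities of 1731 to 2669. Control levels were 11.08, 11.12, 11.27 and 10.88 and mutant levels 11.10, 11.01, 10.96 and 11.09, so the groups overlapped. The ratios were 0.03, -0.11, -0.31 and 0.21, a mean of -0.04 ± 0.22 with an adjusted p of 0.942 by limma and a 95% interval of -0.27 to 0.18. Slc1a2 was lower than Slc38a3 in every pair, by 0.53 ± 0.14 on the log2 scale. The exact sign-flip p was 0.125, the smallest that 4 pairs allow, with an adjusted p of 0.167 over the 4 member differences computed. Slc1a2 had the lowest mean ratio of the 9 members, so a mean difference below 0 was fixed in advance. Against Glul, Slc1a2 was lower in every pair by 0.24 ± 0.19 (exact p = 0.125, adjusted 0.167). That difference was -0.11 ± 0.29 with the outlier spots kept in the background fit, smaller than its spread, and -0.12 ± 0.15 with the mean over probes. Against Slc1a3 the difference was -0.06 ± 0.35 (exact p = 0.875), smaller than its spread, and above 0 with the outlier spots kept (0.07) or without replicate 3 (0.09).

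**Figure D3:**
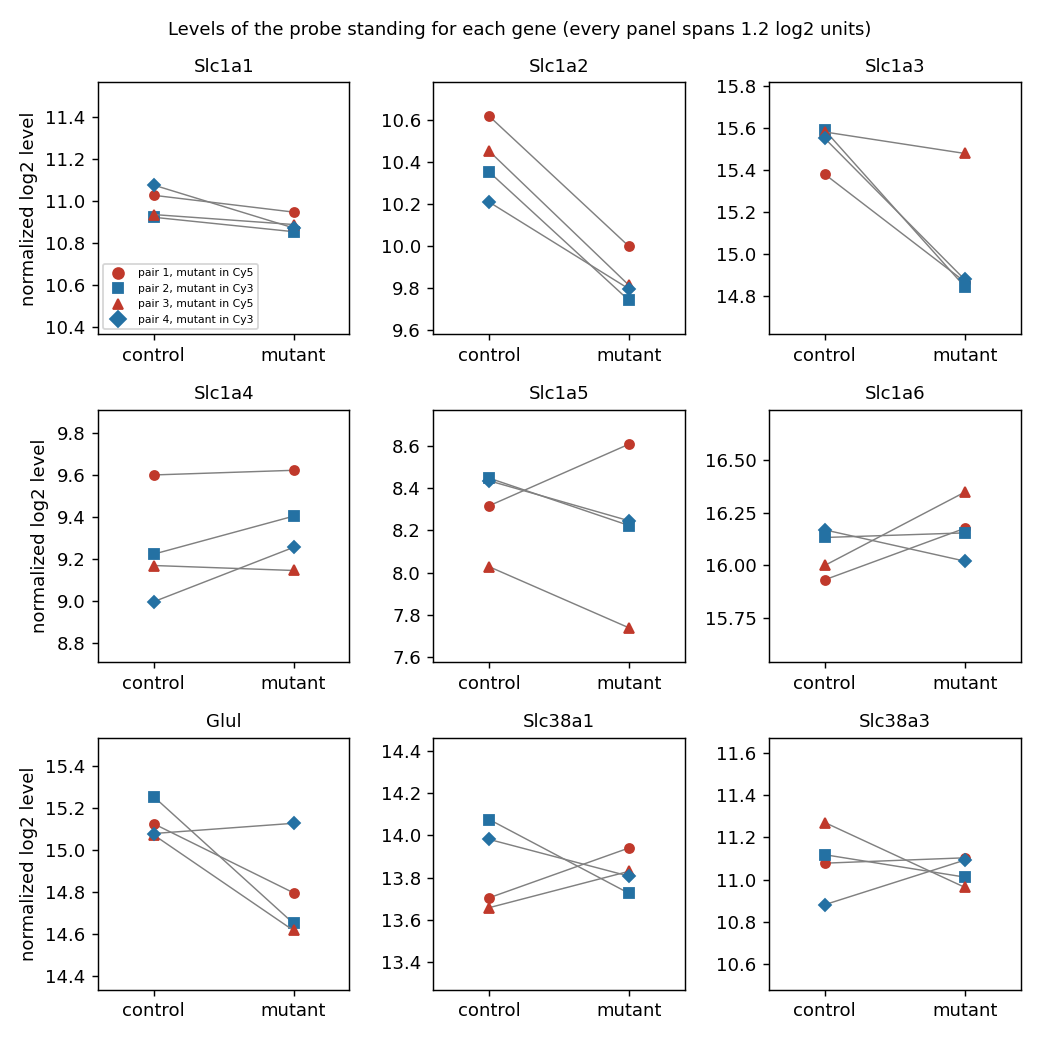
Normalized log2 levels of the probe that stands for each member are shown in control and mutant, a line joining the littermates of each of 4 pairs, and each panel spans 1.2 log2 units around its own centre. Slc1a2 is the only member whose groups do not overlap, and single pairs depart from the rest for Slc1a3 (pair 3) and Glul (pair 4).

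No neuronal member was called, which is near the background, as 0.444% of all genes were called lower and 0.588% higher. Slc1a6, the carrier of Purkinje cell spines and dendrites, had raw control intensities of 47626 to 89306 at chr10:78277447-78277506. Its control log2 levels were 15.93, 16.13, 16.00 and 16.17, and its mutant levels 16.17, 16.15, 16.35 and 16.02. The groups overlapped, with the mutant higher in pairs 1 to 3 and lower in pair 4. The mean ratio was 0.12 ± 0.22 (adjusted p = 0.709 by limma), a fold of 1.08 with a 95% interval of 0.970 to 1.21. By dye order it was 0.30 over the pairs with the mutant in Cy5 and -0.06 over those with it in Cy3. Slc1a2 lay below Slc1a6 in every pair, by 0.69 ± 0.32 on the log2 scale (exact sign-flip p = 0.125, the smallest that 4 pairs allow, adjusted 0.167). These were the members with the lowest and the highest mean ratio, so here too a mean difference below 0 was fixed in advance.

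Slc1a1, the glutamate and cysteine carrier of neurons, gave ratios of -0.08, -0.07, -0.05 and -0.20 with its brighter probe, at chr19:28988332-28988391. These were all below 0 and the tightest of any member, a mean of -0.10 ± 0.07 with an adjusted p of 0.740 by limma. Its control levels of 10.92 to 11.08 overlapped mutant levels of 10.85 to 10.95. The second Slc1a1 probe, A_52_P637988, gave 0.02, -0.02, 0.11 and -0.61, so its mean of -0.13 ± 0.33 rested on pair 4.

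Slc38a1, a carrier for neuronal glutamine uptake, had 5 probes, all well above background on all 4 arrays, with means of -0.03, 0.07, -0.03, 0.06 and 0.03. Its brightest probe (control intensities of 10521 to 21108, chr15:96402059-96402118) gave 0.24, -0.35, 0.17 and -0.17, a mean of -0.03 ± 0.28 with an adjusted p of 0.947 by limma. Those signs followed the dye, with means of 0.21 over the Cy5 pairs and -0.26 over the Cy3 pairs, and the dye term in the fit was 0.23. The signs of the other 4 probes did not follow the dye in all pairs.

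The neutral amino acid carriers gave small ratios as well. Slc1a4, which exchanges serine and alanine, had ratios of 0.02, 0.18, -0.02 and 0.26 with its brighter probe at chr11:20202533-20202592, a mean of 0.11 ± 0.13 (adjusted p = 0.697 by limma). Its dimmer probe, A_51_P371311, was above 0 in all 4 pairs at 0.41, 0.17, 0.10 and 0.30, a mean of 0.24 ± 0.14, and did not pass (adjusted p = 0.463 by limma over probes). It was the only one of the 21 tested probes above 0 in all 4 pairs, while 5 were below 0 in all 4. Those 5 are not independent, with more than 1 probe each of Slc1a2 and Slc1a3. Counted over genes, 7.76% were above 0 and 7.33% below 0 in all 4 pairs. Slc1a5, a neutral amino acid exchanger that carries glutamine, gave 0.29, -0.23, -0.29 and -0.19 at chr7:17383359-17383418, a mean of -0.10 ± 0.27 (adjusted p = 0.863 by limma), with pair 1 alone above 0.

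Of 45 listed genes of glutamate and glutamine metabolism, vesicle and mitochondrial carriers, other carriers, GABA handling and transporter partners, 41 were tested, 0 passed with limma in either direction (4 had an unadjusted p under 0.05), 19 were below 0 and the median was 0.02. Over all genes 0.444% were called lower, 0.588% were called higher and 49.1% were below 0, so a count of 0 among 41 is near the background. Among 10 tested enzymes (median 0.00), the smallest p belonged to Aldh18a1, which starts proline synthesis from glutamate (-0.16 ± 0.12, adjusted p = 0.465 by limma), and to the glutamate dehydrogenase gene Glud1 (0.12 ± 0.20, adjusted p = 0.678). Among 7 carriers of vesicles and mitochondria (median -0.04), they belonged to the mitochondrial glutamate carrier gene Slc25a18 (0.24 ± 0.14, adjusted p = 0.403 by limma) and to Slc17a7, which fills synaptic vesicles with glutamate (-0.19 ± 0.21, adjusted p = 0.590). Of 9 other glutamine and glutamate carriers (median 0.02), Slc3a2, the shared heavy chain of several exchangers, stood at 0.12 ± 0.13 (adjusted p = 0.709 by limma). The neutral amino acid exchanger gene Slc7a8 stood at 0.27 ± 0.55, where pair 2 alone gave 1.08.

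Of 8 genes of GABA synthesis and uptake (median -0.01), the astroglial GABA transporter gene Slc6a11 gave -0.14, -0.10, -0.09 and -0.17, a mean of -0.12 ± 0.04 (adjusted p = 0.639 by limma). Aldh5a1, an enzyme of the GABA breakdown pathway, stood at 0.17 ± 0.20 (adjusted p = 0.712 by limma). Of 7 genes of transporter partners and ion coupling (median 0.05), Septin2, a cytoskeletal protein, gave 0.40, 0.35, 0.29 and 0.43. This was above 0 in all 4 pairs, at 0.37 ± 0.06, and did not pass (adjusted p = 0.0842 by limma). Septin2 was called with no dye term (adjusted p = 0.0475 by limma), 1 of 18 settings, and ran from 0.34 to 0.39 over them. The scaffold gene Slc9a3r1, also called Nherf1, stood at -0.27 ± 0.14 (adjusted p = 0.253 by limma).

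**Figure D4:**
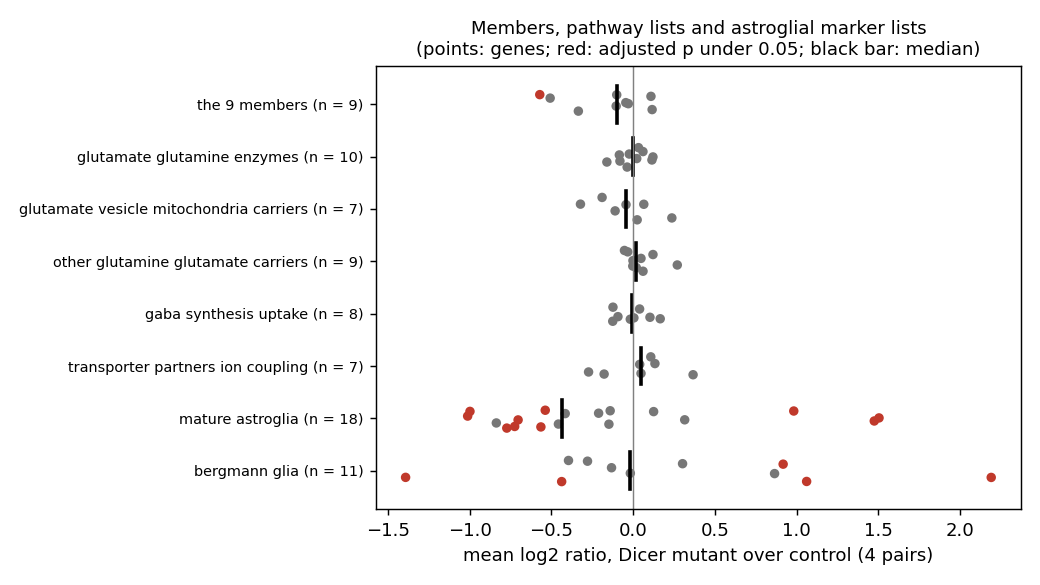
Each point is the mean log2 ratio of 1 gene over 4 pairs, in rows for the 9 members, the 5 pathway lists and the astroglial and Bergmann glial marker lists, with red for called genes and a black bar at the row's median. The pathway lists have medians between -0.04 and 0.05 and no called gene, while the 18 mature astroglial markers spread from -1.01 to 1.504.

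Of 18 tested markers of mature astroglia, 7 were called lower (Aqp4, S100b, Ntsr2, Cldn10, Plpp3, Clu and Ndrg2) and 3 higher (Aldh1l1, Gfap and Slc14a1), with a median of -0.44. None of the 18 was missing: each was above background. Their summed normalized intensity, in which the brightest probes weigh most, was 512769 to 556700 in controls and 401854 to 466512 in mutants. Of 11 Bergmann glia markers, 2 were called lower (Gria4 and Dao) and 3 higher (Fabp7, Tnc and Vim), with a median of -0.02 and summed intensities of 161214 to 174948 in controls and 188025 to 235983 in mutants. Of the markers of Purkinje cells (11 tested), granule neurons (12), interneurons (8), oligodendrocytes (14), microglia (12), choroid plexus (8) and endothelium (8), none was called. Over all genes 0.444% were called lower and 0.588% higher, so no call in lists of 8 to 14 genes is near the background. It does not show that these cell types were unchanged. The oligodendrocyte median was -0.26 with 13 of 14 below 0, the endothelial median -0.08 with 8 of 8 below 0, and the choroid plexus median 0.14 with 1 of 8 below 0. The summed intensity of the oligodendrocyte markers was 254181 to 310334 in controls and 211157 to 265463 in mutants, ranges that overlapped. Choroid plexus markers stood apart in pair 2, where all 8 lay below 0, from -0.94 for Ttr to -0.18 for Otx2, while all 8 lay above 0 in pairs 3 and 4. The part of these marker differences in the ratios of Slc1a2, Slc1a3 and Glul was not tested.

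The arrays set the precision of all of this. Between 26291 and 28907 probes per array and channel were well above background, no spot was saturated, no member spot carried an outlier flag, and the ratios of different arrays correlated across genes at 0.00563 to 0.427. Dicer1 itself stood at 0.04 ± 0.22 in whole tissue (adjusted p = 0.947 by limma), with pair ratios of 0.26, -0.27, 0.07 and 0.10; whether its probes lie in the floxed stretch was not established, so it checks neither label nor deletion.

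The genes whose pair ratios lay closest to each of the 3 lowest members were taken from 17988 other genes by the root mean square difference over the 4 pairs. For Slc1a2 they were Evc (difference 0.06, own mean -0.55), Scg3 (0.09, mean -0.49) and Cdc42ep4 (0.09, mean -0.55). For Slc1a3 they were the brain metallothionein gene Mt3 (0.10, mean -0.58), the glycogen regulator gene Ppp1r3c (0.12, mean -0.44) and Igsf1 (0.13, mean -0.57). Mt3 had ratios of -0.60, -0.70, -0.22 and -0.79, with its smallest size in pair 3, as Slc1a3 had. For Glul they were the unnamed cDNA AK153595 (0.04, mean -0.33), the potassium channel subunit gene Kcnab2 (0.04, mean -0.30) and Necap2 (0.07, mean -0.34). This likeness rests on 4 pairs of shared arrays and is a description only.

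**Figure D5:**
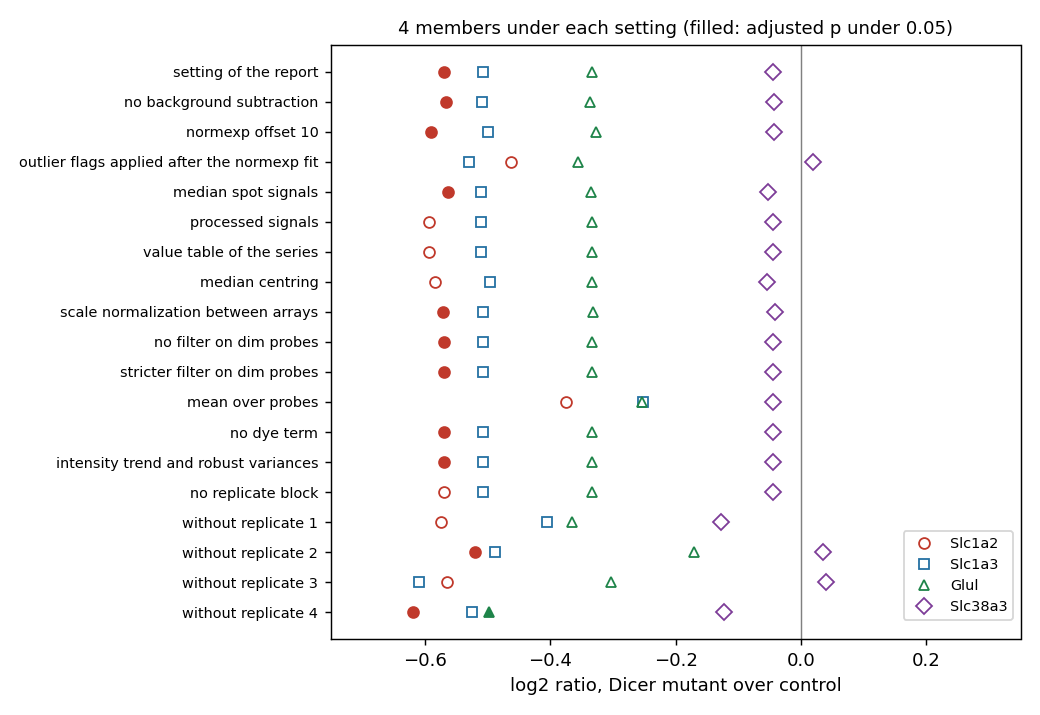
Log2 ratios of Slc1a2, Slc1a3, Glul and Slc38a3 are shown under the setting of the report and each of 18 alternatives, 1 row each, with filled symbols where the adjusted p was under 0.05. Slc1a2 stays between -0.62 and -0.37 and is called in 10 of the 18, Slc1a3 in 0 and Glul in 1.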

How the data were processed

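The deposited array files give, for each dye, linear intensities of the spots and of the background around them. Agilent Feature Extraction 10.5.1.1 measured them, per the file headers. They also hold processed intensities (background-subtracted, detrended and dye-normalized), their log10 ratio of Cy5 over Cy3, and quality flags, all made by the authors' scanner software. The series' deposited values repeat those log10 ratios, turned in sign where the mutant was in Cy3 (largest difference 4.84e-06). Probe coordinates are mm9, per the file headers. Each channel used 500 ng of total RNA, per the labels.

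Ratios were recomputed with limma 3.58.1 in R 4.3.3 (with jsonlite 2.0.0, and version 1.17.8 of data.table) from mean spot and median background signals: normexp with offset 50, loess within arrays, and nothing between arrays. Outlier-flagged spots (143 to 248 per array, 0 on members) were left out of the normexp fit and given weight 0; this order was adopted with earlier counts known, and the reverse order calls 32 genes lower and 50 higher. Levels per channel were made comparable by quantile normalization of the average intensity. Tested probes stood well above background in 1 genotype on all 4 arrays and had values on at least 3 arrays, in both dye orders. The brightest probe stood for its gene. Symbols of 24844 probes came from RefSeq accessions and of 16330 from the array files; for the members both gave the same name.

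The limma model had a dye and a genotype term, 2 residual and 3.37 prior degrees of freedom, and Benjamini-Hochberg adjustment. Since mutant and control shared an array, the ratio is the paired comparison: with dye and genotype fitted out, channels of 1 array correlated at 0.394 to 0.704 and of different arrays at no more than 0.316, which includes shared spot effects. Differences between probes or members were tested by exact two-sided sign-flip permutation over 4 pairs. Alternatives were other background corrections, signals, normalizations, filters, gene summaries and models, and leaving out each pair.

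Members, lists and tests were chosen with earlier results of these data known. Named genes were all members, the called genes of each pathway list or else the 2 with the smallest p, and the 3 nearest genes to Slc1a2, Slc1a3 and Glul; Dicer1 and the called markers were named in addition.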

Additional observations from a re-analysis of the deposited data

Results flagged for a closer look

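In 2 of the 22 member probes, 1 pair stood further from the other 3 than is usual for 4 values; chance alone gives this for about 1 in 20 probes. For the brightest Slc1a2 probe (A_52_P168496) it was pair 4, at -0.41, while pairs 1 to 3 lay between -0.64 and -0.61. For the Slc1a3 probe A_51_P333324 it was pair 2, at -0.28, while the others lay between -0.08 and -0.06. Causes were not tested.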

How the results depend on the processing

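Slc1a2, the called member, did not change direction under the 18 alternatives; the called cell type markers were not recomputed under them. The count of members called lower, 1 in the report, was 0 with the outlier flags applied after the normexp fit, with the processed signals, with the value table, with median centring, with the mean over probes and with no replicate block, and ran from 0 (without replicate 1 or 3) to 2 (without replicate 4, Slc1a2 and Glul) when 1 pair was left out. The count of pathway genes called higher, 0 in the report, was 1 with no dye term (Septin2) and ran from 0 to 1 when 1 pair was left out (Slc7a8 at 0.57 without replicate 4). The difference of Slc1a2 from Slc38a3 was -0.33 with the mean over probes. Without the replicate block, Slc1a2 had a ratio of -0.57 and an adjusted p of 0.0534 by limma, and no other member was called with or without it. Genes called over the whole array moved from 80 lower and 106 higher to 32 and 50 with the flags after the fit, to 53 and 88 with the processed signals and, leaving out replicates 1, 2, 3 and 4 in turn, to 13, 127, 31 and 121 lower and 44, 140, 60 and 215 higher. Fits on 3 pairs have fewer samples. They kept the dye term, so the single pair left in a dye order weighed as much as both pairs of the other order. The causes of the other shifts were not tested. Ratios near 0 changed sign in some settings for Slc1a5 (-0.25 to 0.04), Slc38a1 (-0.07 to 0.02) and Slc38a3 (-0.13 to 0.04). The GLT-1b probe of Slc1a2, the dimmest probes of Slc1a3, Slc1a4, Slc38a1 and Glul, and the only Slc1a5 probe were dim. Their control intensities were 1.70 to 9.90 times the local background, which limits what they show.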
